A study of Mus musculus with 4 samples.

Results

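The 9 genes described here encode inhibitory receptors of T cells (Pdcd1, Havcr2, Lag3, Tigit and Btla), ligands of these receptors (Cd274 and Pdcd1lg2) and transcription factors of T cell exhaustion (Tox and Tox2). They were taken by name from the 21883 protein-coding genes of the RefSeq genes given for assembly GRCm38.p6 (mm10). Each gene was measured between its bounds with 5 kb on either side. These loci held 9108 of the 25374149 cytosine positions in the deposited table, and 1367 of them, or 15.0%, had at least 5 reads in all 4 libraries. The comparable share of the whole table was 18.9%. Fixed 1-kb windows with at least 5 such positions numbered 100 at the 9 genes and 314517 in all.

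Whole-genome bisulfite sequencing, which reads unmethylated cytosines as thymines, was applied to genomic DNA of splenic CD4+ T cells of NOD mice, which are prone to autoimmune diabetes. All mice started treatment at 6 weeks of age, were dosed weekly over 3 weeks with either PBS or a combination of OX40L and JAG1 proteins, and were 10 weeks old at cell collection, 1 week past the final dose. OX40L engages OX40, a costimulatory receptor of T cells, and JAG1 (Jagged-1) engages receptors of the Notch family. Cells were sorted into CD4+CD25- effector T cells (Teff) and CD4+CD25hi regulatory T cells (Treg), which gave 4 groups of 1 library. The groups given OX40L-JAG1 are called treated Teff and treated Treg below and OX40L-JAG1 in the plots. The labels name no genetic change and do not give the number of animals behind a library. With 1 library per group, every test below compares libraries and not conditions.

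Inhibitory receptors limit T cell activation after antigen contact. PD-1, the product of Pdcd1, is engaged by PD-L1 (Cd274) and PD-L2 (Pdcd1lg2), and recruits phosphatases that dampen signals from the antigen receptor and CD28. TIGIT competes with the costimulatory receptor CD226 for the ligand CD155 (Pvr), TIM-3 (Havcr2) binds galectin-9 and other ligands, LAG-3 binds MHC class II, and BTLA binds HVEM (Tnfrsf14). Regulatory T cells are known to carry several of these receptors. TOX and TOX2 are HMG-box factors that act in the exhaustion program of chronically stimulated T cells. Methylation of CpG cytosines at start sites and at distal regulatory elements is commonly low where these elements are active.

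The start site regions of 4 genes are shown because they hold the contrast between CpG that were read as unmethylated and CpG that were read as methylated. Sequences run from 250 bases before to 50 bases after the start, 5′ to 3′ on the gene's strand, and come from RefSeq on GRCm38.p6. Capitals mark CpG with listed reads in at least 1 library. The regions are Btla at chr16:45224087-45224386 on the plus strand, Tigit at chr16:43664135-43664434 on the minus strand, Cd274 at chr19:29367188-29367487 on the plus strand and Pdcd1lg2 at chr19:29410669-29410968 on the plus strand.
Btla: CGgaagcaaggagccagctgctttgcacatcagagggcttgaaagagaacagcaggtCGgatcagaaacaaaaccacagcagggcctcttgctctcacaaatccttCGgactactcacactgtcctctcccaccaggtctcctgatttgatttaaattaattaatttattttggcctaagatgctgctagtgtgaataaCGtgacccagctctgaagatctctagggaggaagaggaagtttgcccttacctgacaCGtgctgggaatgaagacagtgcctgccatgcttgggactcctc
Tigit: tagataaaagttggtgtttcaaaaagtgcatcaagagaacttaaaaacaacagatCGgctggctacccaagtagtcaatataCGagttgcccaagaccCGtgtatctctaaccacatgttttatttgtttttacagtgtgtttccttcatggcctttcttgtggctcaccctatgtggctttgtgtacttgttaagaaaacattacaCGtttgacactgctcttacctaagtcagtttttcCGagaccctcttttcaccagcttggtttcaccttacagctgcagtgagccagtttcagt
Cd274: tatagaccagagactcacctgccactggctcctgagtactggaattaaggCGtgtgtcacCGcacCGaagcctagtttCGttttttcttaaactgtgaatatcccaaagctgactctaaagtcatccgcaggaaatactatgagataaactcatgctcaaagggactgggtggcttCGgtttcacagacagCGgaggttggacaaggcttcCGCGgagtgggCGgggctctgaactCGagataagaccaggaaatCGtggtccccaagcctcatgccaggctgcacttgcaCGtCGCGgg
Pdcd1lg2: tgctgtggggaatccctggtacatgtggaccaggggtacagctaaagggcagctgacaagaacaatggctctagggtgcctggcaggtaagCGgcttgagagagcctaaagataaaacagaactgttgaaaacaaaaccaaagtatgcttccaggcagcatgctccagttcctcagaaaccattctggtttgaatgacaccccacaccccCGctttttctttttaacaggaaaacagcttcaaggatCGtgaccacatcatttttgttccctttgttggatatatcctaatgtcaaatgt

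The Btla region was read at all 5 of its CpG, and none of its reads was methylated. There were 0 methylated of 110 reads in PBS Teff, 0 of 22 in PBS Treg, 0 of 40 in treated Teff and 0 of 16 in treated Treg. Counts of 0 on these reads allow levels of up to 2.73%, 13.6%, 7.50% and 18.8%. The Tigit region, also with 5 CpG, had 0 of 30 methylated reads in PBS Teff, 0 of 13 in PBS Treg, 0 of 25 in treated Teff and 1 of 42 in treated Treg. Its zeros allow up to 10.0%, 23.1% and 12.0%. In Cd274, with 15 CpG, the region had 0 of 57 methylated reads in PBS Teff and 1 of 57 in treated Teff, and no position was listed in the Treg libraries. The Pdcd1lg2 region held only 3 CpG and was methylated in every library, at 90.0% of 10 reads in PBS Teff, 83.3% of 12 in PBS Treg, 91.9% of 37 in treated Teff and 95% of 20 in treated Treg. PD-L1 and PD-L2 are encoded side by side on chromosome 19, and their start site regions differed in this way in both Teff libraries.

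The other start site regions were covered more thinly. Havcr2, with 3 CpG, was at 23.5% of 34 reads in PBS Teff (95% Wilson interval 12.4% to 40.0%) and was not listed in the other libraries. Pdcd1 was at 0 of 5 reads in PBS Teff, 0 of 5 in treated Teff and 0 of 10 in treated Treg, which allow up to 60.0%, 60.0% and 30.0%. The Tox2 start at 163204186 of chromosome 2, with 23 CpG, was at 1.90% of 105 reads in PBS Teff, 4.07% of 123 in treated Teff and 10.0% of 40 in treated Treg. A later start of Tox2, at 163225453, was methylated, with 100% of 39 reads from PBS Teff and 92.5% of 40 from PBS Treg. The positions behind these values differ between libraries, and only 2 positions of the Tigit region were read in all 4, so levels were not compared. Within 1 kb of a start site, only the later Tox2 start had 5 positions shared by all libraries. Its levels were 100% in PBS Teff, 95.6% in PBS Treg, 87.5% in treated Teff and 97.6% in treated Treg. None of the 4 comparisons was called there. Among 8664 such regions, 0.439% were called lower for Treg against Teff in PBS, 0.127% in the treated pair, 0.566% for treatment in Teff and 0.139% for treatment in Treg. Those called higher made up 0.277%, 0.139%, 0.162% and 0.0231% in that order. Lag3 and Tox have no start site in the table.

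**Figure D1:**
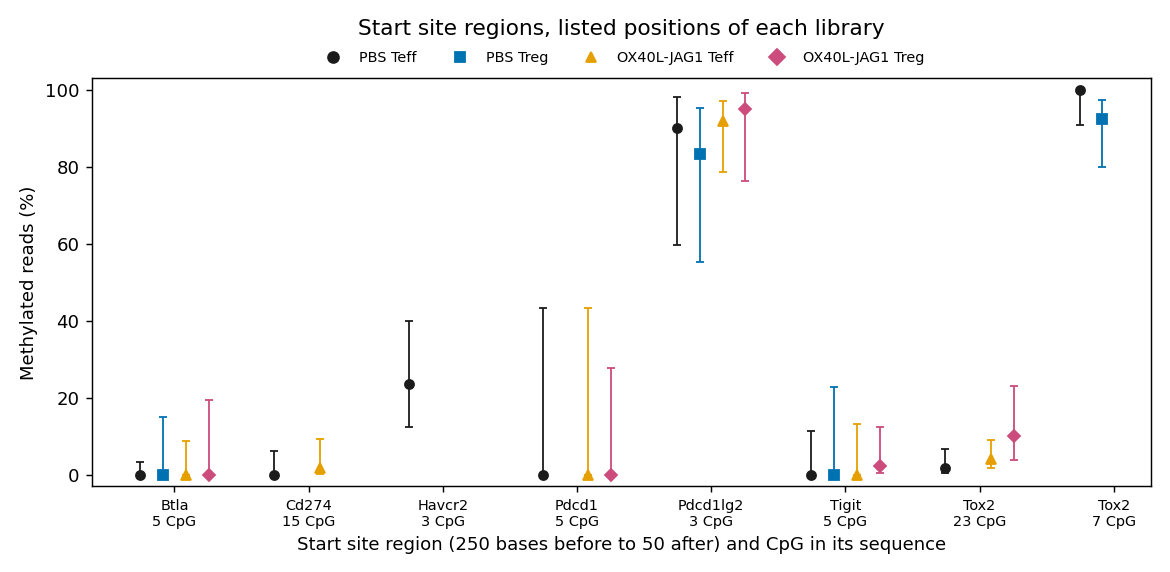
Percent of methylated reads (y axis) in the 300-base start site regions of 7 genes (x axis, with the number of CpG), each library as a point with its 95% Wilson interval; libraries with no listed position have no point. The Pdcd1lg2 region and the later Tox2 start sit above 80% in each library that has a point, and the regions of Btla, Tigit, Cd274, Pdcd1 and the earlier Tox2 start lie at or below 10.0%.

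Median reads at the shared positions of the 9 loci were 14 in PBS Teff, 10 in PBS Treg, 11 in treated Teff and 8 in treated Treg. Levels over all positions of the table shared by the 4 libraries were 85.2%, 84.9%, 81.6% and 82.2% in the same order. Both treated libraries thus lay lower than their PBS counterparts, with a median window difference of -2.82 points in Teff and -2.14 in Treg. The cell type labels were checked on Treg markers. Foxp3, the defining factor of Treg, had a window at 94.6% in PBS Teff, 41.0% in PBS Treg, 94.3% in treated Teff and 46.5% in treated Treg. Of 6 Treg marker genes, 4 had a window called lower in Treg in each pair and none had one called in Teff after treatment, although all 6 loci had a lower level in treated Teff than in PBS Teff, by -0.792 to -18.3 points (Ctla4). No B cell marker (of 6) and no CD8 T or NK cell marker (of 5, with 9 windows) had a called window. Of 5 myeloid markers with windows, Spi1 was called higher in Treg in both pairs. Of all genes with windows, 1.87% had one called lower in Treg in PBS, 0.606% in the treated pair and 3.79% in treated Teff. For treatment in Treg the share was 0.703%. Genes with one called higher made up 1.34%, 0.655%, 1.13% and 0.265% in that order. At these shares, no call among so few marker genes says little about cell content. Of 4 pan T cell genes, Cd3e, a subunit of the antigen receptor complex, had a window at 14.6% in PBS Teff, 38.5% in PBS Treg, 38.5% in treated Teff and 53.3% in treated Treg, and was called higher in PBS Treg and in treated Teff than in PBS Teff. In bulk DNA, a change in the share of a cell type and a change of level within cells cannot be told apart.

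A window was called where Fisher's exact test (two-sided) of methylated against unmethylated reads gave a Benjamini-Hochberg adjusted p under 0.05 over all windows and the levels differed by at least 20 percentage points. Every called window at the 9 genes was lower in the library named first. Treg were lower than Teff in 6 of the 100 windows in the PBS pair, where 0.165% of all windows were called lower, and in 1 window in the treated pair, against 0.0588%. Treated Teff were lower than PBS Teff in 7 windows, against 0.469% of all windows, and treated Treg were lower than PBS Treg in 1 window, against 0.0811%. No window of the 9 genes was called higher in any of these comparisons, in which 0.115%, 0.0547%, 0.0881% and 0.0194% of all windows were called higher. These calls fell in 9 windows of 4 genes, namely Tigit, Havcr2, Pdcd1lg2 and Tox. Pdcd1, Cd274, Lag3, Btla and Tox2 had none.

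The called windows stood out from otherwise similar levels. The median difference over the 100 windows was -0.277 points for Treg against Teff in PBS (-0.158 over all windows), -0.351 in the treated pair (0.435 over all), -1.82 for treatment in Teff (-2.82 over all) and -1.21 for treatment in Treg (-2.14 over all). Each difference was also centred on the median of all windows before the minimum difference was applied. The exact test itself was left on the uncentred counts, so its adjusted p did not change. The 9 genes then had 6, 1, 7 and 1 lower calls. Over all windows the treatment calls in Teff went from 1476 lower and 277 higher to 969 lower and 352 higher. Whether the calls would pass an exact test adjusted for the lower level of the treated libraries was not tested. In the 9 called windows PBS Teff held the highest level each time. Most of these windows were called lower than PBS Teff, so their selection favours this order, and it is not a result of its own.

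**Figure D2:**
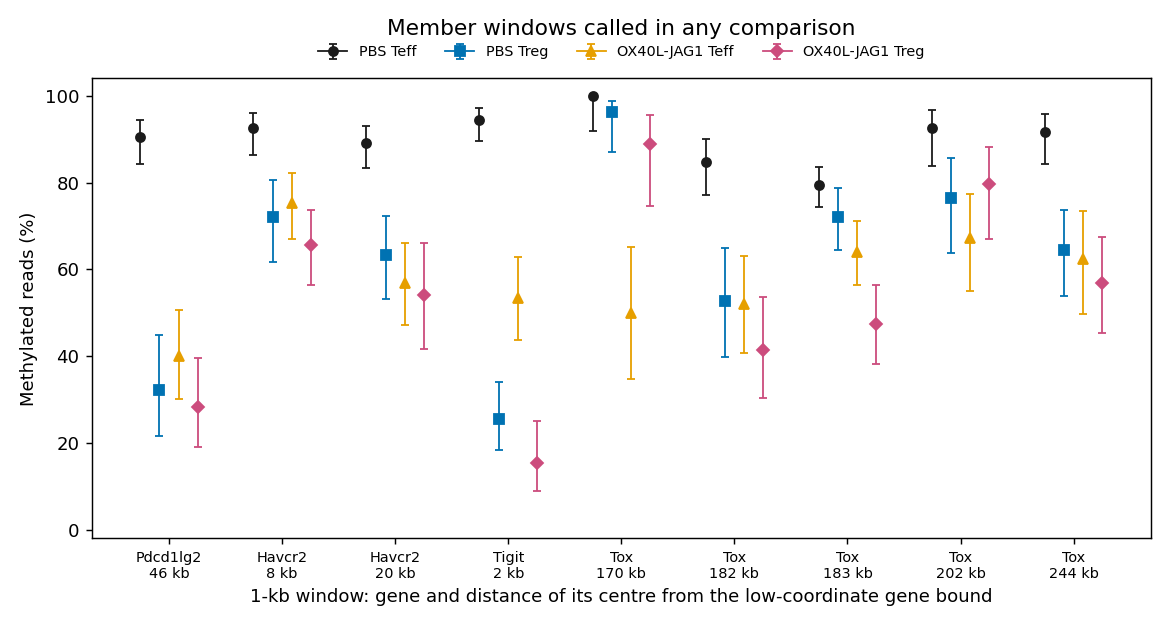
Percent of methylated reads (y axis) in the 9 called 1-kb windows (x axis, with the distance of the window's centre from the low-coordinate bound of the gene), each library as a point with its 95% Wilson interval. PBS Teff is the highest point in every window, an order favoured by the selection, as most windows were called lower than PBS Teff. The Tigit window has the widest spread, from 94.5% to 15.4%.

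Among the receptors, Tigit carried the largest difference. Its window at 43628001 to 43629000 of chromosome 16 held 9 shared positions and lay 2.4 kb inside the low-coordinate bound of the gene, 35.7 kb downstream of its start site. The gene table does not give exons or introns. This stretch is also inside the bounds of Zbtb20, a neighbouring gene for a zinc finger repressor that overlaps the end of Tigit. Methylated reads made up 94.5% of 145 reads in PBS Teff, 25.4% of 118 in PBS Treg, 53.5% of 101 in treated Teff and 15.4% of 78 in treated Treg. The Treg libraries were low, PBS Teff was high, and treated Teff lay between them with no overlap of its 95% interval (43.8% to 62.9%) with those of the other 3 libraries.

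The Treg library was lower than the Teff library at Tigit in both pairs. The difference was -69.1 points in PBS (95% Newcombe interval -76.6 to -59.2, exact test adjusted p = 1.60e-29) and -38.1 points in OX40L-JAG1 (-49.4 to -24.4, exact test adjusted p = 0.000306). It was the only window of the 9 genes called lower in Treg in both pairs, against 0.0337% of all windows. Treatment went with a lower level in Teff, by -41.0 points (-51.1 to -30.4, exact test adjusted p = 6.90e-11). In Treg the difference was -10.0 points (-20.7 to 1.85) and did not pass the test. The treatment difference was not shown to differ between Treg and Teff. The interaction was 31.0 points, and its Wald test, made on log odds of methylation, gave an adjusted p of 0.302. At the Foxp3 window given above, treated Teff differed from PBS Teff by -0.280 points (-8.93 to 7.23). At another Foxp3 window, starting at 7578001 of chromosome X, with 87.4% in PBS Teff, 60.5% in PBS Treg, 72.5% in treated Teff and 44.3% in treated Treg, that difference was -14.9 points (-25.1 to -4.90, exact test adjusted p = 0.0976). Ctla4, another Treg-associated receptor, had a locus level of 81.4%, 34.6%, 63.1% and 23.1% in PBS Teff, PBS Treg, treated Teff and treated Treg over 25 positions, the same order as at Tigit, and its single tested window was not called.

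All 9 positions of the Tigit window were lower in PBS Treg and in both treated libraries than in PBS Teff. At 43628823, PBS Teff had 19 methylated of 22 reads, PBS Treg 0 of 19, treated Teff 7 of 14 and treated Treg 1 of 11. The count of 0 allows up to 15.8%. At 43628781 the counts were 22 of 24, 2 of 21, 11 of 18 and 3 of 14. Both were called lower in Treg within the PBS pair, by -86.4 and -82.1 points (exact test adjusted p = 0.000271 and 0.000482 over all single positions). Single positions were called with the same thresholds where both libraries had at least 5 reads. Of 2975 such positions at the 9 genes in the PBS pair, 5 were called lower and none higher, against 0.00434% and 0.00339% in the whole table. The adjacent window of Tigit, at 43627001, stood at 65.5%, 60.6%, 74.5% and 59.1% in the same order and was not called, and the other 6 windows of the locus were at 82.5% or above in every library. Of these, the nearest to the start site, at 43658001, was at 97.0%, 97.6%, 95.2% and 89.9%. At the promoter sequence shown above, Tigit was at or near 0 in all 4 libraries.

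**Figure D3:**
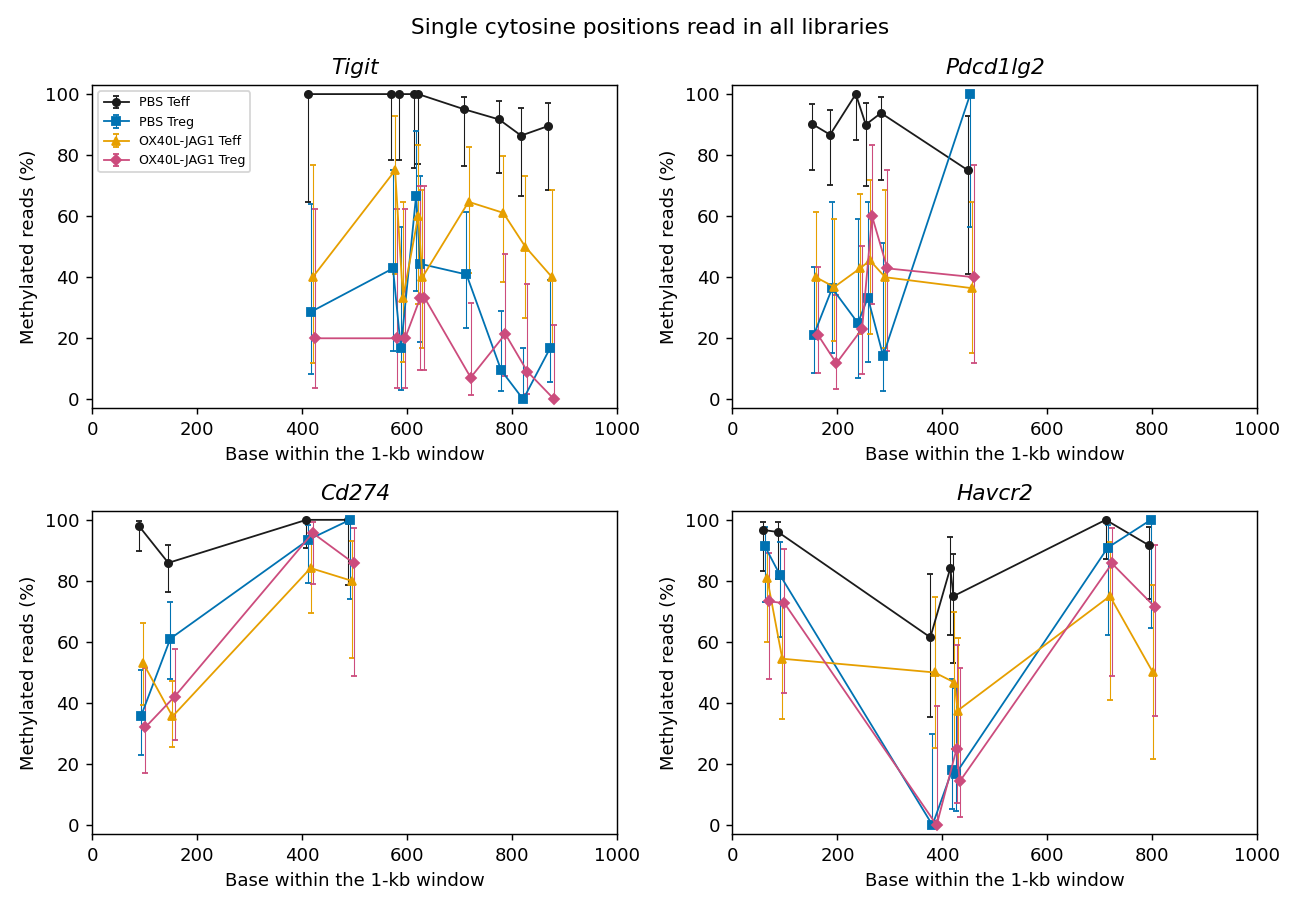
Percent of methylated reads (y axis) at each position read in all 4 libraries, by its base within a 1-kb window (x axis), for the leading windows of Tigit, Pdcd1lg2 and Havcr2 and the Cd274 window with called positions; points are libraries with 95% Wilson intervals, shifted sideways by a few bases so that they can be told apart. Black PBS Teff points lie highest at nearly all positions, and in Cd274 the libraries separate at the first 2 positions. In Havcr2 the Treg libraries lie farthest below PBS Teff in the middle of the window.

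Havcr2, which encodes TIM-3, had 2 called windows among 8 tested. At 46474001 to 46475000 of chromosome 11, 19.6 kb downstream of the start site, levels were 89.2% of 157 reads in PBS Teff, 63.2% of 95 in PBS Treg, 56.9% of 102 in treated Teff and 54.1% of 61 in treated Treg. PBS Teff was high and the other 3 libraries had overlapping intervals. The differences from PBS Teff were -26.0 points in PBS Treg (-36.8 to -15.3, exact test adjusted p = 0.000839) and -32.3 points in treated Teff (-42.8 to -21.4, exact test adjusted p = 3.62e-06). Within the treated pair, Treg differed from Teff by -2.76 points (-18.2 to 12.6), and treated Treg differed from PBS Treg by -9.06 points (-24.4 to 6.50). Neither passed the test.

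The difference between PBS Treg and PBS Teff within that window was uneven. The neighbouring positions 46474383, 46474421 and 46474427 held 61.5%, 84.2% and 75.0% in PBS Teff and 0%, 18.2% and 16.7% in PBS Treg, on 9 to 20 reads. Treated Teff had 50%, 46.7% and 37.5% there, and treated Treg 0%, 25.0% and 14.3%. The first position had 0 of 9 and 0 of 6 reads in the Treg libraries, which allows 33.3% and 50%. At the outer positions PBS Treg stayed at 81.8% or above. None of these 7 positions was called alone.

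The other called window of Havcr2, 46462001 to 46463000, lay 7.6 kb downstream of the start site. It stood at 92.5% of 120 reads in PBS Teff, 72.1% of 86 in PBS Treg, 75.4% of 118 in treated Teff and 65.5% of 113 in treated Treg. Only the PBS pair was called, at -20.4 points (-31.3 to -10.0, exact test adjusted p = 0.0386). That call was lost with positions read in the 2 libraries compared (exact test adjusted p = 0.0528), with a shifted window grid (0.152) and with windows of at least 3 positions (0.0643). Another window, at 46466001, followed the same order at 91.4%, 72.3%, 73.3% and 69.8%. Its differences from PBS Teff, -19.1 points in PBS Treg and -18.1 in treated Teff, passed the exact test (adjusted p = 0.000191 and 0.000408) but not the minimum of 20 points. Its position 46466700 had 29 methylated of 39 reads in PBS Teff, 6 of 39 in PBS Treg, 11 of 37 in treated Teff and 5 of 27 in treated Treg, and was called on its own in the PBS pair (-59.0 points, exact test adjusted p = 0.00479). The positions 46466489 and 46466510 of the same window were at 91.9% or above in all libraries. The tested window nearest the start site of Havcr2, 2.4 kb upstream at 46452001, stood at 97.7%, 94.8%, 82.7% and 79.3%, with both treated libraries low and no call. Its treatment difference in Teff was -15.0 points (-25.2 to -6.01, exact test adjusted p = 0.0545).

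Pdcd1, Lag3 and Btla were measured less completely. Pdcd1, the gene of PD-1, kept 17 of 236 listed positions and 1 of the 25 windows its locus spans. That window, in the flank at 94036001 of chromosome 1 and beyond the end of the gene, stood at 49.4% of 85 reads in PBS Teff, 60.5% of 43 in PBS Treg, 67.3% of 52 in treated Teff and 45.3% of 53 in treated Treg. No comparison was called. The window differences ranged from -22.0 points (-38.9 to -3.06) for Treg against Teff under OX40L-JAG1 to 17.9 points for treatment in Teff. With positions read in the 2 libraries compared, 3 windows inside Pdcd1 were tested for treatment in Teff and none was called. The largest difference of these was at 94051001, with 66.7% of 51 reads in PBS Teff and 34.7% of 49 in treated Teff (-32.0 points, -48.3 to -12.4, exact test adjusted p = 0.107). None of the 42 single positions of the locus tested in the PBS pair, or of the 62 for treatment in Teff, was called.

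Lag3, whose product is a CD4-related receptor, had 4 tested windows, and 3 of them lay in the flank and overlapped the neighbouring gene Ptms. The window inside Lag3, 124909001 to 124910000 of chromosome 6, was at 93.7% of 126 reads in PBS Teff, 94.7% of 94 in PBS Treg, 88.3% of 77 in treated Teff and 97.1% of 68 in treated Treg. The flank window at 124916001 was low in all libraries, at 21.1%, 16.5%, 20.2% and 14.9%. None was called, and the 4 differences of the window inside Lag3 ran from -5.34 to 8.75 points. Btla had 3 tested windows, all in its flanks. The nearest to its start site, 1.8 kb upstream at 45222001, was at 75.0% of 60 reads in PBS Teff, 67.9% of 53 in PBS Treg, 57.8% of 64 in treated Teff and 74.5% of 55 in treated Treg. Its largest difference, -17.2 points for treatment in Teff (-32.5 to -0.523), had an exact test adjusted p of 0.337.

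Of the ligands, Pdcd1lg2 held the only one of the 100 windows, each of at least 5 positions, where the treatment difference itself differed between cell types. At 29456001 to 29457000 of chromosome 19, 45.6 kb downstream of the start site and within the gene, 6 shared positions gave 90.6% of 127 reads in PBS Teff, 32.2% of 59 in PBS Treg, 40.0% of 85 in treated Teff and 28.2% of 71 in treated Treg. PBS Teff was high and the other 3 libraries were low, with overlapping intervals. PBS Treg differed from PBS Teff by -58.3 points (-69.6 to -44.2, exact test adjusted p = 1.96e-12), and treated Teff by -50.6 points (-61.1 to -38.2, exact test adjusted p = 9.89e-12). Treg and Teff under OX40L-JAG1 differed by -11.8 points (-25.8 to 3.16), and treated and PBS Treg by -4.03 points (-19.7 to 11.5). Neither of these passed the test.

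The treatment difference at this window was 46.5 points less negative in Treg than in Teff. The Wald test of the interaction, made on log odds, gave an adjusted p of 0.0357. That p rose to 0.0641, and out of the calls, at a lower minimum of positions per window. Of all windows, 0.0108% were called in that test. At 5 of the 6 positions PBS Teff was highest. At 29456157, for example, the counts were 28 of 31 in PBS Teff, 4 of 19 in PBS Treg, 8 of 20 in treated Teff and 4 of 19 in treated Treg, and this position was called alone in the PBS pair (-69.3 points, exact test adjusted p = 0.0160). The exception was 29456455, where PBS Treg had 5 of 5 methylated reads and PBS Teff 6 of 8. The other 12 windows of Pdcd1lg2 had no call. The nearest of them to the start site, 2.6 kb downstream at 29413001, was at 95.9%, 96.8%, 97.4% and 97.7% in the same order of libraries, and the start site region shown above was methylated in all libraries.

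Cd274, the gene of PD-L1, had no called window among its 4 tested ones, all of which stood at 86.0% or above in each library and lay more than 9 kb from its start site. The nearest, 29357001, lay in the flank and inside the bounds of the neighbouring gene Plgrkt. It was at 89.4%, 92.6%, 95.3% and 86.0% in PBS Teff, PBS Treg, treated Teff and treated Treg. The single positions of Cd274 differed more. At 29378095, 50 of 51 reads were methylated in PBS Teff, 15 of 42 in PBS Treg, 26 of 49 in treated Teff and 8 of 25 in treated Treg. This position was called lower than in PBS Teff both in PBS Treg (-62.3 points, exact test adjusted p = 7.97e-07) and in treated Teff (-45.0 points, exact test adjusted p = 0.00148). At 29378151, in the same window, the counts were 67 of 78, 33 of 54, 26 of 73 and 16 of 38, and the treatment difference in Teff was called (-50.3 points, exact test adjusted p = 2.33e-05). These were the 2 positions of 3538 called for treatment in Teff at the 9 genes, against 0.00772% lower and 0.000965% higher in the whole table. No position was called of 2114 in the treated pair or of 1868 for treatment in Treg, against 0.000968% and 0.000197% called lower and 0.000417% and 1.65e-05% higher in the whole table. Fisher's exact test at an unadjusted p under 0.05 passed 32 and 18 of these positions. The share of all positions passing at that threshold was not computed, so these counts have no background to be read against.

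The window around these positions, 29378001 to 29379000, had only 4 positions read in all libraries and so fell short of the minimum of 5. It stood at 93.4% of 181 reads in PBS Teff, 63.8% of 138 in PBS Treg, 54.9% of 175 in treated Teff and 55.9% of 93 in treated Treg. With a minimum of 3 positions it was called lower in PBS Treg (-29.6 points, exact test adjusted p = 7.65e-08) and in treated Teff (-38.5 points, exact test adjusted p = 9.55e-14) than in PBS Teff, where 0.103% and 0.405% of all windows were called lower. Its interaction was then 30.7 points, with an adjusted p of 0.0243 in the Wald test on log odds. With positions read in the 2 libraries compared, 2 more windows of Cd274 were called lower in Treg within the PBS pair, against 0.151% of all windows. They started at 29365001 (88.4% and 57.7%) and 29373001 (98.6% and 76.7%). For treatment in Teff, the window at 29378001 was called with such positions (-30.3 points, exact test adjusted p = 9.02e-12), where 0.361% of all windows were called lower. PBS Teff was thus high and PBS Treg and treated Teff low in a window of both PD-1 ligand genes.

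Tox, the largest of the 9 genes at 305205 bases, held 48 of the 100 windows and 5 of the 9 called ones, all centred between 170.1 and 244.1 kb from its low-coordinate bound. The 2 windows called in both the PBS pair and the Teff treatment pair were at 6868001 and 6930001 of chromosome 4. The first stood at 84.7% of 118 reads in PBS Teff, 52.6% of 57 in PBS Treg, 52.1% of 73 in treated Teff and 41.5% of 65 in treated Treg. Its differences from PBS Teff were -32.1 points in PBS Treg (-45.9 to -17.6, exact test adjusted p = 0.00491) and -32.7 points in treated Teff (-45.2 to -19.3, exact test adjusted p = 0.000560). The second stood at 91.6% of 95 reads, 64.4% of 87, 62.3% of 61 and 56.8% of 74 in the same order, with differences of -27.2 (exact test adjusted p = 0.00343) and -29.3 points (exact test adjusted p = 0.00298). With a window grid shifted by 500 bases, the second fell under the minimum in the PBS pair (-18.4 points, exact test adjusted p = 0.0162) and missed both thresholds for treatment in Teff (-12.9 points, exact test adjusted p = 0.0853). At both, PBS Teff was high and the other libraries overlapped.

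The other 3 called windows of Tox each had an order of their own. At 6856001, treated Teff alone was low, at 50% of 38 reads, beside 100% of 44 in PBS Teff, 96.2% of 52 in PBS Treg and 88.9% of 36 in treated Treg (treatment in Teff -50 points, exact test adjusted p = 1.29e-05). The call held at a smaller size on the shifted grid (-30.1 points) and with positions read in the 2 libraries compared (-33.0 points). Treg against Teff in the treated pair, at 38.9 points (18.1 to 55.5), was not called. The interaction, 42.7 points, did not pass the Wald test on log odds, so the treatment difference was not shown to differ between Treg and Teff. Among the 100 windows, 2 had treated Teff at least 10 points below each other library, against 1.97% of all windows. At 6888001, levels were 92.6% of 68 reads, 76.4% of 55, 67.2% of 64 and 79.6% of 54, and treatment in Teff was called (-25.5 points, exact test adjusted p = 0.0199). At 6869001, treated Treg was lowest, with 79.4% of 296 reads in PBS Teff, 72.1% of 147 in PBS Treg, 64.1% of 156 in treated Teff and 47.3% of 112 in treated Treg. This was the only window of the 9 genes called for treatment in Treg (-24.8 points, -36.0 to -12.8, exact test adjusted p = 0.0293). The call was lost with a window grid shifted by 500 bases (exact test adjusted p = 0.166).

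The Tox window with most reads, 6683001 in the flank, stood at 91.2% of 850 reads in PBS Teff, 91.7% of 600 in PBS Treg, 89.3% of 689 in treated Teff and 87.7% of 666 in treated Treg, with no call. Along the gene, Tox was evenly methylated at first and then diverged. In each 50-kb stretch of the first 150 kb from the low-coordinate bound, the 4 libraries stood between 92.6% and 96.0%, and no difference exceeded 1 point. From 150 to 200 kb the levels were 90.5% in PBS Teff, 84.7% in PBS Treg, 81.3% in treated Teff and 76.2% in treated Treg. Treatment differences there were -9.17 points in Teff (-11.6 to -6.80) and -8.51 points in Treg (-11.7 to -5.36). From 200 to 250 kb the levels were 80.7%, 75.4%, 75.2% and 72.3%, and from 250 to 300 kb they were 77.8%, 79.5%, 77.5% and 71.9%. In the last 5 kb before the high-coordinate bound, 5 positions were nearly unmethylated, at 0 of 61 reads, 2.70% of 37, 6.52% of 46 and 3.57% of 28.

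**Figure D4:**
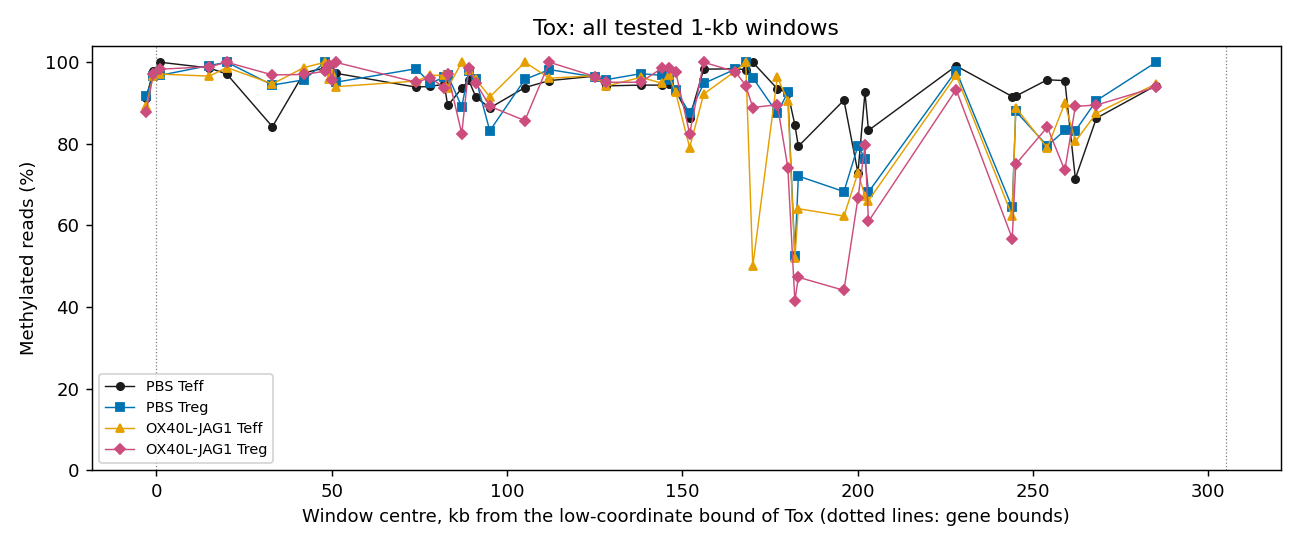
Percent of methylated reads (y axis) in all 48 tested windows of Tox by distance of the window's centre from the low-coordinate gene bound in kb (x axis), with 1 line per library; dotted lines mark the gene bounds. The libraries run together above 80% over the first 150 kb and separate between 170 and 260 kb, where PBS Teff stays mostly above the others.

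Tox2, which encodes a relative of TOX, had 11 tested windows and no call. Its lowest window, 163324001 to 163325000 of chromosome 2, lies across the far bound of the gene, 121.4 kb from the low-coordinate bound. It was also the window of the 9 genes with the largest higher value in PBS Treg. It stood at 12.1% of 495 reads in PBS Teff, 26.2% of 313 in PBS Treg, 21.1% of 451 in treated Teff and 29.0% of 328 in treated Treg. Here PBS Teff was lowest, and PBS Treg exceeded it by 14.1 points (8.52 to 19.8, exact test adjusted p = 0.000338), under the minimum of 20 points. The first 100 kb of Tox2 stood between 89.6% and 93.8% in all libraries, and the last 21 kb at 38.9%, 46.8%, 38.8% and 45.5%.

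Over whole loci, pooled over shared positions and with no test, Cd274 and Tigit differed most between PBS Treg and PBS Teff in the lower direction. Cd274 stood at 94.0% in PBS Teff, 84.9% in PBS Treg, 85.0% in treated Teff and 84.0% in treated Treg over 51 positions, so that only PBS Teff was high. Tigit stood at 91.7%, 85.1%, 88.2% and 81.6%, and Treg was lower in both pairs, by -6.56 and -6.54 points. Havcr2 had 86.7%, 82.6%, 79.4% and 79.9%, Pdcd1lg2 84.5%, 80.9%, 80.3% and 80.0%, and Tox 90.7%, 89.6%, 89.1% and 87.5%. Btla stood at 68.5%, 64.2%, 58.9% and 61.2%, and treatment in Teff gave its largest difference, -9.59 points (-14.9 to -4.20). Levels were higher in Treg in both pairs at Lag3 (53.5%, 61.4%, 48.1% and 58.6%) and Tox2 (70.4%, 74.1%, 69.5% and 72.4%). The difference of 10.5 points at Lag3 under OX40L-JAG1 became -1.30 points with a read minimum of 10. For Pdcd1 (74.5%, 80.4%, 79.1% and 75.4%), the treatment difference in Teff of 4.59 points became -5.32 points with that minimum and -10.5 points with positions read in the 2 libraries compared, and the difference of 5.88 points in the PBS pair became -1.36 with that minimum.

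**Figure D5:**
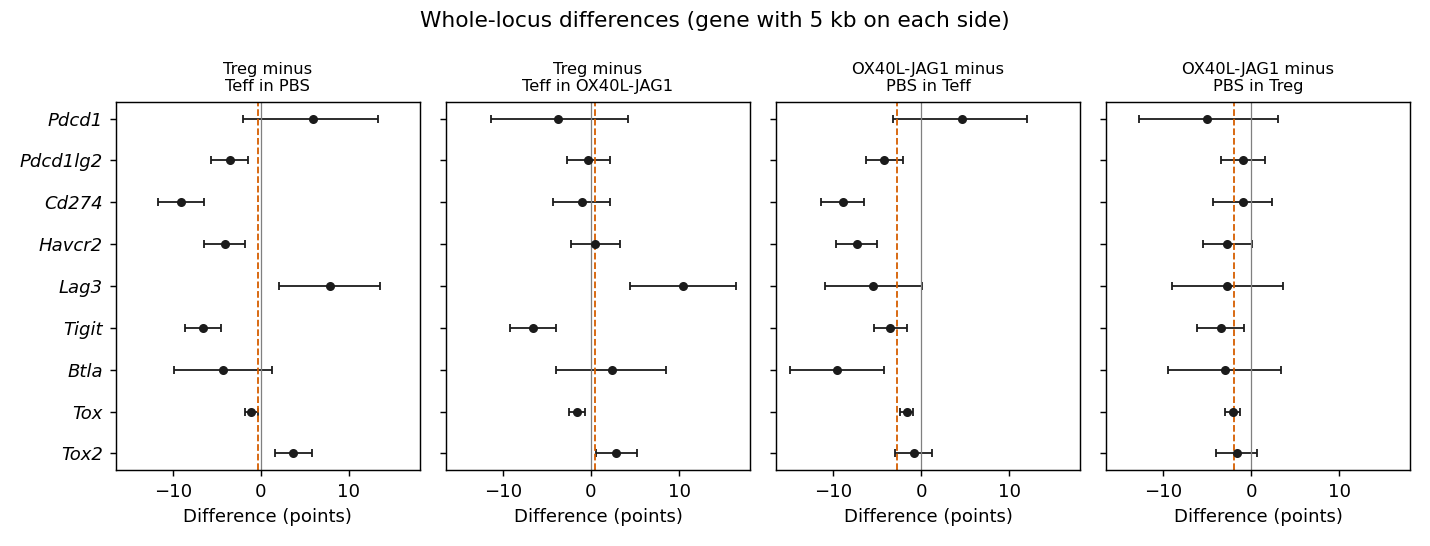
Differences in percentage points (x axes) over whole loci of the 9 genes (rows) in the 4 comparisons (panels), with 95% Newcombe intervals; the grey line is 0 and the dashed line the median over all protein-coding genes. Cd274 lies lowest in the first panel at -9.03 points, and Lag3 lies highest in both Treg against Teff panels.

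The median locus difference of the 9 genes was -3.55 points for Treg against Teff in PBS, where all protein-coding genes had -0.308, and -0.293 in the treated pair (0.509 for all genes). Treatment gave -4.18 points in Teff (-2.74 for all genes) and -2.70 in Treg (-1.94 for all genes). The loci below 0 numbered 6, 5, 8 and 9 of 9 in these comparisons, beside 11732, 8298, 17221 and 15889 of 20659 protein-coding loci.

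Windows with PBS Teff highest were found in 4 of the 9 genes among the calls. Most of these calls were made against PBS Teff, which favours that order. Of the 100 windows, 5 were called lower both in PBS Treg and in treated Teff than in PBS Teff, against 0.0623% of all windows. They were the Tigit and Pdcd1lg2 windows, the Havcr2 window at 46474001 and the Tox windows at 6868001 and 6930001, of which the last lost both calls on the shifted grid. Both comparisons use the PBS Teff library, so a low or high count in that library enters both, and the overlap is not a result of its own. In the Pdcd1lg2, Havcr2 and Tox windows of this set, treated Teff differed from PBS Treg by 7.80 points (-8.22 to 22.7), -6.30 (-19.5 to 7.31), -0.577 (-17.3 to 16.3) and -2.07 (-17.7 to 13.2). In the Tigit window it was 28.0 points higher than PBS Treg (15.1 to 39.8). PBS Teff stood at least 10 points above each other library in 11 of the 100 windows, against 0.946% of all windows, a threshold chosen after the values were seen. Treated Treg stood as far below the others in 8, against 1.90%. PBS Teff was also the library with most reads, and its level over all shared positions of the table, 85.2%, was close to the 84.9% of PBS Treg. The part of read depth and of the Cd3e difference in these windows was not tested.

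Other genes of the pathway were taken from fixed lists. None of 12 further co-inhibitory receptors had a called window in any of the 4 comparisons, while 1.87%, 0.606%, 3.79% and 0.703% of all genes with windows had one called lower. Their median locus differences were -0.0780, 0.189, -2.79 and -2.10 points. Ctla4, 1 of the 12, had only 1 tested window. Its locus differences were -46.9 points for Treg against Teff in PBS and -40.0 points in the treated pair. Both equal the lowest value over all protein-coding loci. Among 16 measured ligands of these receptors, only Pvr, which encodes the TIGIT and CD226 ligand CD155, had a call. Its window stood at 30.7% of 189 reads in PBS Teff, 47.3% of 150 in PBS Treg, 54.5% of 132 in treated Teff and 56.9% of 123 in treated Treg, and was called higher for treatment in Teff (23.9 points, exact test adjusted p = 0.00385). Genes with a higher call for treatment in Teff made up 1.13% of all genes.

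Of 3 listed costimulatory receptors (Cd226, Cd28 and Icos), Cd226 and Cd28 had at least 1 window called lower in treated Teff than in PBS Teff. Cd226, on chromosome 18, had 3 such windows among 11 tested, and only the one at 89201001 was also called in the PBS pair. That window was at 75.5% of 151 reads in PBS Teff, 52.8% of 108 in PBS Treg, 44.0% of 116 in treated Teff and 32.0% of 75 in treated Treg. PBS Treg was lower than PBS Teff by -22.7 points (exact test adjusted p = 0.0410) and treated Teff by -31.5 points (exact test adjusted p = 7.69e-05). Cd28 stood at 48.5%, 42.6%, 17.0% and 16.2%, with both treated libraries low, and passed only in Teff (-31.5 points, exact test adjusted p = 0.0309). Of 10 inhibitory signalling genes, Cblb, an E3 ubiquitin ligase that restrains T cell activation, had the only calls. A Cblb window stood at 78.6% of 112 reads in PBS Teff, 32.1% of 78 in PBS Treg, 43.1% of 51 in treated Teff and 55.2% of 67 in treated Treg, and was called lower in PBS Treg (-46.5 points, exact test adjusted p = 1.64e-07) and in treated Teff (-35.4 points, exact test adjusted p = 0.00220).

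The listed factors of exhaustion and T cell differentiation, most of them transcription factors, went in both directions. Of 21 with tested windows, 3 had a window called lower and 3 one called higher in the PBS pair, 2 and 1 in the treated pair, 7 and 2 for treatment in Teff, and 2 and 1 for treatment in Treg. Beside the shares of genes called lower given above, 1.34%, 0.655%, 1.13% and 0.265% of all genes with windows had a window called higher. Tcf7, which encodes the factor TCF-1 of naive and stem-like T cells, had a window called higher in all 4 comparisons, at 6.99% of 229 reads in PBS Teff, 41.7% of 156 in PBS Treg, 29.7% of 158 in treated Teff and 67.9% of 112 in treated Treg. Batf, an AP-1 factor, was lower after treatment in both cell types in a window at 92.2%, 89.7%, 69.2% and 61.9% (-23.0 points in Teff, exact test adjusted p = 1.57e-05, and -27.7 in Treg, exact test adjusted p = 0.000119). Maf was also called lower in both treatment comparisons, in a window at 82.1%, 58.5%, 54.8% and 38.3%.

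PBS Teff also held the highest level at windows of Nfatc1, Irf4 and Prdm1, each of them called against that library. Nfatc1, a calcium-dependent factor, had a window at 72.7% of 33 reads in PBS Teff, 2.70% of 37 in PBS Treg, 25.0% of 36 in treated Teff and 8% of 25 in treated Treg. Irf4 had a window at 76.4%, 34.4%, 31.1% and 19.6%. Both were called lower in PBS Treg and in treated Teff than in PBS Teff. Prdm1, which encodes Blimp-1, was at 90.7%, 72.7%, 42.8% and 54.9% and called for treatment in Teff (-48.0 points, exact test adjusted p = 3.62e-25). Nr4a2 went the other way in the PBS pair, at 22.5%, 53.7%, 37.9% and 53.8% (31.2 points higher in Treg, exact test adjusted p = 8.12e-25). Ikzf3 had a window called lower in Treg under OX40L-JAG1, at 83.6%, 65.8%, 91.9% and 55.9%, and a neighbouring window called higher in the PBS pair and for treatment in Teff, at 18.2%, 44.0%, 49.4% and 67.7%.

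The Tigit window was compared with all windows at other protein-coding genes by the mean absolute difference of the 4 levels. Among the nearest were windows in Trps1 (5.69 points, with 73.2%, 25.0%, 52.8% and 15.9%) and Epg5 (6.48 points, with 91.0%, 14.4%, 54.0% and 26.3%). These are likenesses over 4 libraries and are given as a description.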

How the data were processed

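The submitters' processing notes name Trimmomatic, Bismark and the build mm10, without versions or settings. Whether duplicates were removed is not given in the sources used here. Library preparation used a Kapa Hyper kit, and bisulfite conversion a kit from Zymo, per the labels' protocols. Per the file headers, the deposited table lists a read count and a methylated read count per library at each cytosine position, with the strands on separate lines, and a level. The deposited level is headed as a percentage but runs as a fraction, and equals methylated reads over reads within 5e-07. Every nonzero count in the table is at least 5, so its totals (208402911 and 131555634 listed reads in Teff and Treg under PBS, 159291553 and 103584075 under OX40L-JAG1) are not the sequencing depth. Apparent methylation of the mitochondrial genome, left out elsewhere, was 0.620% to 0.712%.

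The members and the gene lists were chosen with earlier results of these data known. Methylated and total reads were summed per library in fixed 1-kb windows over positions that every library covered with 5 reads or more, and windows with at least 5 positions were tested on the whole table with Fisher's exact test (scipy 1.17.1, numba 0.67.0, checked against each other and on simulated data). The interaction was a Wald test from a logistic model after 0.5 was added to every cell. It tests a difference of log odds, and the interaction in points was computed apart from it. Intervals are 95% Wilson or Newcombe intervals, and a count of 0 was given the limit of 3 counts. They cover only counting error, as positions on 1 read are not independent and duplicates may remain. Summed reads count a read once per position. Positions and coordinates are 1-based on mm10. Start sites and sequences were matched by gene identifier for 7 of 9 members. Named windows were all those called, plus the tested window nearest each start site, or with most reads for genes without one. Other windows named, such as those at 46466001 and 163324001, were chosen after their values were seen. List genes were named where called in both pairs, with up to 3 others per list and comparison. Lists covered co-inhibitory receptors, ligands, costimulatory receptors, inhibitory signalling and exhaustion factors (mostly transcription factors). Marker lists covered Treg, T, B, CD8 T and NK, and myeloid cells. Alternatives were a read minimum of 10, positions read in the 2 libraries compared and read counts divided by 3. Others were a grid shifted by 500 bases, at least 3 positions per window and differences centred on the median. Centring changed the differences and left the exact test as it was. Omission of positions over 5 times the median reads, and the interaction under the alternatives, were added after the data were seen.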

Additional observations from a re-analysis of the deposited data

Results flagged for a closer look

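The treatment difference in Treg and that in Teff differed in the Pdcd1lg2 window at 29456001 by the interaction test itself. The window stood at 90.6% in PBS Teff, 40.0% in treated Teff, 32.2% in PBS Treg and 28.2% in treated Treg, so that treatment went with -50.6 points in Teff and -4.03 points in Treg. The difference between these was 46.5 points. The Wald test of the interaction, made on log odds, gave an adjusted p of 0.0357 over all windows. In 3 of the alternatives tried, that p was above 0.05 (0.0641 with at least 3 positions per window, 0.0554 without positions over 5 times the median reads and 1 with read counts divided by 3). With 1 library per group this compares 4 libraries. No group has enough libraries for a search for outlying samples.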

How the results depend on the processing

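No paired analysis was possible because each group has 1 library, and no library could be left out. With a read minimum of 10, only 23 windows of the 9 genes were tested and none of the 9 called windows kept 5 positions, so the lower calls were 0 in each of the 4 comparisons and the interaction calls 0. With positions read in the 2 libraries compared, more windows were tested. The lower calls were 10 of 291 windows in the PBS pair, against 0.151% of all windows. For treatment in Teff they were 11 of 342 windows, against 0.361%. With read counts divided by 3, a stand-in for dependent reads, the lower calls were 2 in the PBS pair and 2 for treatment in Teff. They were the Tigit and Pdcd1lg2 windows both times, where 0.0289% and 0.0165% of all windows were called lower. Lower calls were 0 in the treated pair and 0 for treatment in Treg. Interaction calls were 0, as were called single positions in the PBS pair and for treatment in Teff. On a grid shifted by 500 bases the lower calls for treatment in Treg were 0. With at least 3 positions per window, 1 of 212 windows was called higher for treatment in Teff, where 363 of 750314 windows were called higher in all. It lay in the flank of Havcr2 at 46449001 (66.4% in PBS Teff and 87.6% in treated Teff, 21.2 points). Without positions over 5 times the median reads, an alternative chosen after the data were seen, the lower calls for treatment in Treg were 0 and the interaction calls 0. No called window difference changed sign under these alternatives, and the other 60 counts computed stayed within 1.5 times of those reported. Most of these 60 were counts of 0 that stayed 0, chiefly of higher calls, and so say little about the calls made. Of the 36 locus differences, 9 changed sign in at least 1 alternative, at 5 loci. The cause of these changes was not tested where fewer windows or reads do not give it.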
